A study of Mus musculus with 12 samples.

Results

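The genes described here are Hk2, Pfkp, Slc16a3 and Ndrg1, 4 genes of glycolysis and of the response to low oxygen, out of 3188 genes with a row in the deposited mouse tables. They were chosen by their gene symbols. All 4 had a row in the microglia table (2186 genes), and Slc16a3 and Ndrg1 also had a row in the table of regulatory T (Treg) cells (1284 genes). Hk2 and Pfkp are not analysed here in Treg cells. The study sequenced messenger RNA in bulk from 4 groups of 3 libraries. Microglia are the macrophages that live in brain and spinal cord tissue. Primary cultures of them were grown together with Treg cells (n = 3) or left unstimulated as the control (n = 3). Treg cells, which restrain immune responses, came from the injured spinal cord (n = 3) and from the spleen (n = 3), both taken 14 days after spinal cord injury. Mouse strain, age, the sorting of the Treg cells, the source of those put into co-culture and the length of co-culture are not given in the sources used here. Nothing in the labels ties the 3 libraries of a group to different animals or cultures. The p-values therefore reflect only how far these libraries spread, which may be technical.

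Glycolysis turns glucose into pyruvate in the cytosol, and pyruvate can then enter the mitochondria or be reduced to lactate and leave the cell. Hypoxia-inducible factor (HIF) pairs an oxygen-sensitive alpha subunit with ARNT. When oxygen is low, or when immune cells are activated, the alpha subunit is stabilised and the pair switches on genes of glucose uptake, glycolysis and lactate export. Hk2 encodes hexokinase 2, which traps glucose in the cell by phosphorylating it. Pfkp encodes the platelet-type subunit of phosphofructokinase, the enzyme of the committing step of glycolysis. Slc16a3 encodes the monocarboxylate transporter MCT4, which carries lactate out of glycolytic cells together with a proton. Ndrg1 encodes a cytosolic protein widely used as a marker of the hypoxic response. It is also known for its role in the myelin of peripheral nerves and, in mouse T cells, for its link to anergy.

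The promoter windows of the members are shown because HIF binds a short core in the DNA next to its target genes. RefSeq windows (GRCm38.p6), which span 250 bases before to 50 bases after an annotated gene start, were matched for 3 of the 4 members, all but Ndrg1. Capitals mark matches to ACGTG or GCGTG, the 5-base forms of the HIF core, on the gene's strand, or to CACGT or CACGC where the core lies on the opposite strand. The windows lie at chr6:82774405-82774704 on the minus strand for Hk2, at chr13:6648722-6649021 on the minus strand for Pfkp, and at chr11:120948817-120949116 on the plus strand for Slc16a3.
Hk2: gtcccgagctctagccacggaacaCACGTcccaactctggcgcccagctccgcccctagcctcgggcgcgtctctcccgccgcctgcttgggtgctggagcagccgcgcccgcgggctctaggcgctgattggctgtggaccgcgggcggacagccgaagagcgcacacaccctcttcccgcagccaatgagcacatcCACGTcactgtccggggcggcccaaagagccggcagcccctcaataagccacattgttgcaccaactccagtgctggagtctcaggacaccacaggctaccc
Pfkp: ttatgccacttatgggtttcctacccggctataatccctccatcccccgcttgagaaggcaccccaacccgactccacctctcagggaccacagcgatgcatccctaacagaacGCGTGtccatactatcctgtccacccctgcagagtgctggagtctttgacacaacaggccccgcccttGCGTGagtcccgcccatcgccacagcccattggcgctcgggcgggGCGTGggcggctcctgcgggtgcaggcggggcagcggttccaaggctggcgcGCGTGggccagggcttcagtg
Slc16a3: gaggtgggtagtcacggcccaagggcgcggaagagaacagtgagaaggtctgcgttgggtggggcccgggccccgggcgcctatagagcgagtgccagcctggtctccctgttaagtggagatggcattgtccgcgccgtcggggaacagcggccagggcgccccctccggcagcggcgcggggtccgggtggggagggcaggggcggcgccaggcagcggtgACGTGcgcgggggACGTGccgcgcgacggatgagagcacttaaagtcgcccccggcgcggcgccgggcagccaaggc

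Each window held more than 1 core, and no matches overlapped. Positions are counted from the start that each window is built on. For Hk2 it is the outer end of the gene as RefSeq gives it, for Pfkp it lies 289 bases and for Slc16a3 583 bases inside that end. Hk2 had 2 matches to ACGTG on the opposite strand, which began at -226 and -52. Slc16a3 had 2 matches to ACGTG on its own strand, at -27 and -14, both close to that start. Pfkp had 4 matches to GCGTG on its own strand, at -136, -68, -23 and 30. Such matches are common: 43.8% of 32851 RefSeq windows held at least 1 match on either strand and 20.6% held at least 2. Windows rich in G and C hold more of them, and the members' windows were rich in both. The GC share was 67.3% for Hk2, 64.7% for Pfkp and 73.3% for Slc16a3, against a median of 52.7% over all windows. Of the windows with a GC share of at least 60%, 69.2% held a core and 39.8% held at least 2. A core stood in 69.4% of the 36 windows of the glycolysis list, which include those of Hk2 and Pfkp. It stood in 53.3% of the 15 windows of the list of glucose, lactate and pyruvate transport, which include that of Slc16a3. On the hypoxia list, where no member had a window, it stood in 72.2% of 36 windows. A match describes these letters and is not evidence of binding.

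**Figure D1:**
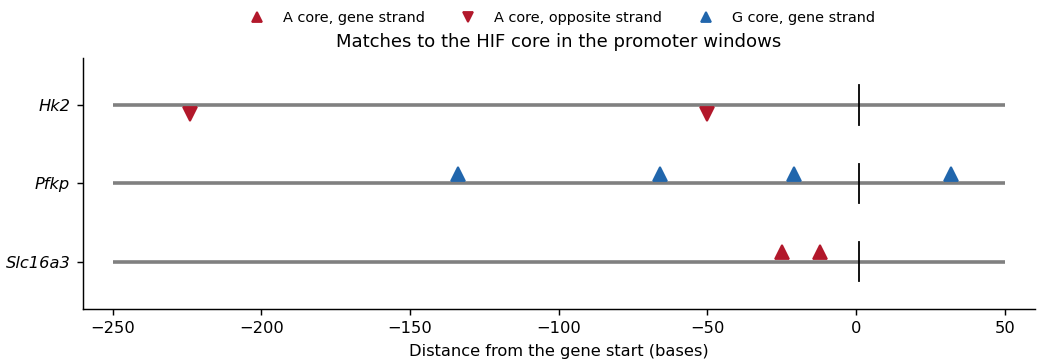
Positions of the matches to the 5-base HIF core in the promoter windows of Hk2, Pfkp and Slc16a3, in bases from the annotated start that each window is built on (black tick). Red triangles (A core) mark the middle of a match to ACGTG and blue ones (G core) to GCGTG, pointing up on the gene's strand and down on the opposite strand; the Slc16a3 matches begin at -27 and -14, the Hk2 matches at -226 and -52, and the 4 Pfkp matches between -136 and 30.

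The genes lie on different chromosomes. Hk2 (NCBI gene 15277) spans positions 82725025 to 82774454 of chromosome 6 in GRCm38.p6, Pfkp (gene 56421) 6579874 to 6649060 of chromosome 13, Slc16a3 (gene 80879) 120948484 to 120959000 of chromosome 11, and Ndrg1 (gene 17988) 66929318 to 66969641 of chromosome 15. In GENCODE M21, of the same build, the 3′ part of Pfkp overlaps Pitrm1 on the opposite strand, Hk2 overlaps the antisense transcript Gm17034, and Ndrg1 overlaps Gm17035 and Gm2895 on the opposite strand. The sources used here do not give whether counting used strand, so reads of these overlaps cannot be assigned with certainty. Slc16a3 overlapped no other gene in GENCODE M21.

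The values are FPKM, fragment numbers scaled for transcript length and for the size of the library, so levels of different genes can be set side by side within a table. Depth is unknown. Each deposited table holds only genes past the authors' thresholds, with log2 fold changes beyond 1 in either direction and Q values below 0.05, so a gene with a row had already been found changed on these libraries. Tests were run with limma on log2(FPKM + 1) over each whole table, with Benjamini-Hochberg adjustment and a threshold of 0.05. Fold changes are on that scale, which understates changes of low genes. Of the genes tested, 99.6% in the Treg table and 100% in the microglia table passed, so a call says little about a member beyond its size and direction. The tables were normalized separately, and values are compared within a table only. FPKM summed over the rows lay between 115884 and 117408 in co-cultured and between 59529 and 61068 in control microglia, and between 111243 and 134887 in spinal cord and 64893 and 65362 in spleen Treg cells. Whether this excess is part of the change or of the normalization cannot be read from selected genes. Results are therefore also given with equal totals over the table and after quantile normalization, which lowered single genes by a median log2 of 0.83 and 0.26 in microglia, and of 0.85 and 0.37 in Treg cells. Both rest on genes picked because they changed, which by construction removes part of any shared shift. In bulk RNA, fewer cells of a type and less RNA per cell cannot be told apart.

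The labelled cell types were checked against their markers. Both microglia groups carried high levels of the complement genes C1qa (means of 2998 FPKM in co-culture and 1367 FPKM in control) and C1qb and of the protease gene Ctss. Of 20 microglia and macrophage genes 10 had a row, of which 7 were higher and 3 lower in co-culture (5 and 3 with equal totals, 4 and 3 after quantile normalization). The 3 lower ones were the microglial genes Cx3cr1 (1.45 FPKM in co-culture and 136 FPKM in control) and Tmem119 (3.92 FPKM in co-culture and 9.86 FPKM in control) and the monocyte gene Cd14 (151 FPKM in co-culture and 457 FPKM in control). Mrc1, a mannose receptor of macrophages, was at 287 FPKM in co-culture and 42.7 FPKM in control. Treg cells carried the T cell genes Cd2 (1627 FPKM in the cord and 709 FPKM in the spleen) and Ctla4. Foxp3 and Il2ra are not analysed here.

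In microglia cultured with Treg cells, transcripts of all 4 members were more abundant than in control microglia. Pfkp and Hk2 moved most, by 3.16-fold and 2.74-fold in mean FPKM, and Ndrg1 and Slc16a3 less, by 2.15-fold and 1.88-fold (3 libraries each). The 4 calls were all towards higher levels, as were 53.4% of the 1529 genes tested, so the direction alone does not set the members apart. Nor does the lack of overlap between the groups, seen in all 4 members and in 99.5% of the 2186 genes of the table. Hk2 and Pfkp also passed under both other scalings, whereas Slc16a3 lay slightly below 0 under both and Ndrg1 passed only after quantile normalization.

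Hk2, the entry step, stood at 51.73, 52.48 and 50.15 FPKM in co-cultured microglia, against 19.65, 19.29 and 17.40 FPKM in control microglia. The groups were far apart, and the replicates of a group lay close together. The means were 51.5 ± 1.19 FPKM in co-culture and 18.8 ± 1.21 FPKM in control (SD, n = 3 each), and the log2 difference was 1.41 (SE 0.06, adjusted p = 2.88e-07 by limma). Equal totals gave 0.48 and quantile normalization 0.59, and Hk2 passed under both.

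Pfkp, at the committing step, stood at 44.23, 46.30 and 43.83 FPKM in co-culture, against 14.51, 14.07 and 13.96 FPKM in control. It was the most even member among the control libraries and had the largest change of the 4 in microglia. The log2 fold change was 1.59 (SE 0.05, limma adjusted p = 6.96e-08), and it remained past the threshold at 0.67 with equal totals and 0.86 under quantile normalization.

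Slc16a3, which exports lactate, stood at 54.75, 58.62 and 57.31 FPKM in co-culture, against 28.39, 29.92 and 32.56 FPKM in control. The groups did not overlap, and Slc16a3 was the most abundant member in each of the 6 libraries. The log2 fold change was 0.89 (SE 0.06, limma adjusted p = 4.24e-06), but it was -0.05 with equal totals (adjusted p = 0.507) and -0.04 after quantile normalization (adjusted p = 0.658). Among the scalings used here, it was thus higher in co-cultured microglia only with the deposited FPKM. In the authors' deposited table its log2 fold change was 1.12, not far above the bound of 1 for having a row.

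Ndrg1, the hypoxia marker, stood at 16.63, 20.43 and 19.66 FPKM in co-culture, against 9.60, 8.70 and 8.14 FPKM in control. It was the least abundant member in each of the 6 microglia libraries, and the groups did not overlap. The log2 fold change was 1.02 (SE 0.10, limma adjusted p = 2.07e-05), 0.13 with equal totals (adjusted p = 0.264) and 0.55 after quantile normalization, where it passed.

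**Figure D2:**
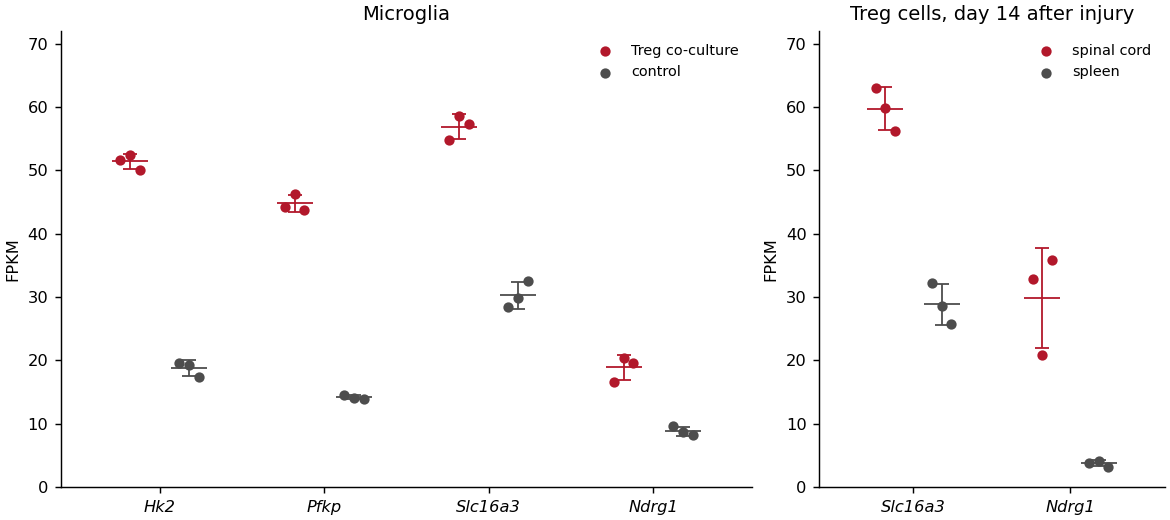
FPKM of the members in each library (points), with the group mean (horizontal mark) and SD (bars, n = 3), in Treg co-cultured and control microglia on the left and in spinal cord and spleen Treg cells on the right. All 6 pairs of groups are apart, as for 99.5% of genes in the microglia table and 92.7% in the Treg table, and the widest spread is that of Ndrg1 in spinal cord Treg cells, from 20.85 to 35.80 FPKM.

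The order of levels within the microglia was the same in both groups, with Slc16a3 first, then Hk2, Pfkp and Ndrg1, and the libraries of neighbours in this order did not overlap in either group. The distances between them differed between the groups. Ratios of a pair of genes within a library do not change when the whole library is multiplied by the same factor, as with equal totals. Quantile normalization can change them, and the ratios here use the deposited FPKM. The ratio of Pfkp to Slc16a3 was 0.808, 0.790 and 0.765 in co-culture, against 0.511, 0.470 and 0.429 in control. The ratio of Hk2 to Slc16a3 was 0.945, 0.895 and 0.875 in co-culture, against 0.692, 0.645 and 0.534 in control. Both enzymes were thus higher per transcript of the lactate exporter in every co-cultured library than in any control library. Of the 6 pairs of members, 5 had ratios that did not overlap between the groups, each with an exact two-sided permutation p = 0.10, the smallest that 3 against 3 libraries allow. The ratio of Slc16a3 to Ndrg1 overlapped, at 3.29, 2.87 and 2.92 in co-culture and 2.96, 3.44 and 4.0 in control (exact permutation p = 0.20). Over the 22 ratios computed in both tables the adjusted p was 0.116 at best, so none could pass in this design.

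Set against Gapdh, a glycolytic enzyme gene that itself had a row, Hk2 and Pfkp were higher per Gapdh transcript in every co-cultured library, by log2 differences of 0.65 and 0.86. Slc16a3 per Gapdh differed by 0.11 with groups that did not overlap (exact permutation p = 0.10 for all 3), and Ndrg1 per Gapdh by 0.29 with groups that overlapped (exact permutation p = 0.20). Gapdh is not a neutral standard here, since it was 3114 ± 74.7 FPKM in co-culture and 1784 ± 101 FPKM in control (SD, n = 3 each).

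The glycolysis list, which holds Hk2 and Pfkp themselves, gave their setting. Of its 26 enzyme genes, 9 had a row and all 9 were tested in microglia: 8 rose and 1 fell with the deposited FPKM, with a median log2 fold change of 1.10, against 0.74 over all genes tested. Over all genes tested, 46.6% fell. Without Hk2 and Pfkp, 7 of 24 genes were tested, of which 6 rose and 1 fell. With equal totals 6 of the 9 were higher and 2 lower (35.1% and 47.8% of all genes tested), and after quantile normalization 6 were higher and 3 lower (47.3% and 46.9%). Hk2 and Pfkp are among the higher genes in each count of the 9. Of the hexokinases with a row, Hk3 was more abundant than Hk2. Hk3, a hexokinase of myeloid cells, stood at 671 ± 7.12 FPKM in co-culture and 91.7 ± 3.16 FPKM in control (SD, n = 3 each), a log2 fold change of 2.86. The ratio of Hk3 to Hk2 was 13.1, 12.7 and 13.3 in co-culture, against 4.78, 4.82 and 5.06 in control, so Hk3 made up more of the pair in co-culture.

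Below the phosphofructokinase step, several folds lay under those of Hk2 and Pfkp. Tpi1, which interconverts the triose phosphates, and Pgk1, the first ATP-yielding kinase of the pathway, were each 2.15-fold higher in co-culture and passed under both scalings. Gapdh (1.75-fold) and Pkm, pyruvate kinase (1.86-fold), were higher with the deposited FPKM and lay below 0 with equal totals (log2 fold changes of -0.15 and -0.06) and after quantile normalization (-0.20 and -0.16). Gapdh was called lower under both (limma adjusted p = 0.00617 and 1.84e-04) and Pkm after quantile normalization (4.44e-05). Tpi1, Gapdh, Pgk1, Pkm and Ldha have processed pseudogene copies in the mouse genome, and the sources used here do not give how reads were shared with them.

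At the branch to lactate, the 2 dehydrogenase subunits moved in opposite directions. Ldha, the subunit that favours lactate formation, was at 814 ± 13.1 FPKM in co-culture and 318 ± 5.66 FPKM in control, and Ldhb, the subunit of oxidative tissues, at 37.9 ± 1.4 FPKM in co-culture and 113 ± 4.95 FPKM in control (SD, n = 3 each). The ratio of Ldha to Ldhb was 21.7, 21.8 and 20.9 in co-culture, against 2.93, 2.75 and 2.78 in control. Ldha rose and Ldhb fell under every scaling.

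Of the 18 genes on the list of glucose, lactate and pyruvate transport, 7 had a row and 5 passed the filter on low values in microglia, of which 4 rose and 1 fell, against 53.4% and 46.6% of all genes tested. With equal totals 2 were higher and 1 lower (35.1% and 47.8% of all genes tested), and after quantile normalization 3 were higher and 1 lower (47.3% and 46.9%). The genes tested include Slc16a3, which was called higher only with the deposited FPKM. Slc2a1, the glucose transporter GLUT1, rose 2.54-fold to 75.7 ± 0.957 FPKM in co-culture, against 29.8 ± 2.37 FPKM in control, and passed under both scalings. Slc2a6, a glucose transporter of inflammatory macrophages, was at 4.61, 3.93 and 5.30 FPKM in co-culture, against 1.07, 1.00 and 1.00 FPKM in control. Emb, a chaperone of monocarboxylate transporters, was 2.04-fold higher. Its log2 fold change was 0.07 with equal totals, which did not pass, and 0.33 after quantile normalization, which passed. Mpc1, a subunit of the carrier that takes pyruvate into mitochondria, fell to 68.6 ± 2.28 FPKM in co-culture, against 190 ± 6.45 FPKM in control. The ratio of Slc16a3 to Mpc1, of lactate exporter to pyruvate importer transcript, was 0.779, 0.888 and 0.826 in co-culture, against 0.152, 0.161 and 0.165 in control. The low-expressed transporter genes Slc2a4 and Slc2a10 had a row and were below the filter.

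Of the 21 genes of flux control and gluconeogenesis, 3 were tested in microglia. Pdk3, a kinase that switches off pyruvate dehydrogenase, rose 2.58-fold to 18.4 ± 0.252 FPKM. Pdk1, a second kinase of that enzyme, was 1.84-fold higher. Its log2 fold change was -0.07 with equal totals (limma adjusted p = 0.381) and 0.48 after quantile normalization, where it passed. Pck2, mitochondrial phosphoenolpyruvate carboxykinase, fell to 7.50 ± 1.33 FPKM in co-culture, against 22.7 ± 0.676 FPKM in control (SD, n = 3 each). Of 12 glycogen genes, 2 were tested. Pgm2l1, a sugar phosphate mutase, fell 4.12-fold. Pgm1, phosphoglucomutase, was 1.73-fold higher with the deposited FPKM. With equal totals Pgm1 was at a log2 of -0.16 and called lower (limma adjusted p = 0.0224). After quantile normalization it was at 0.13 and did not pass. No gene of the list of 9 pentose phosphate genes had a row in either table.

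**Figure D3:**
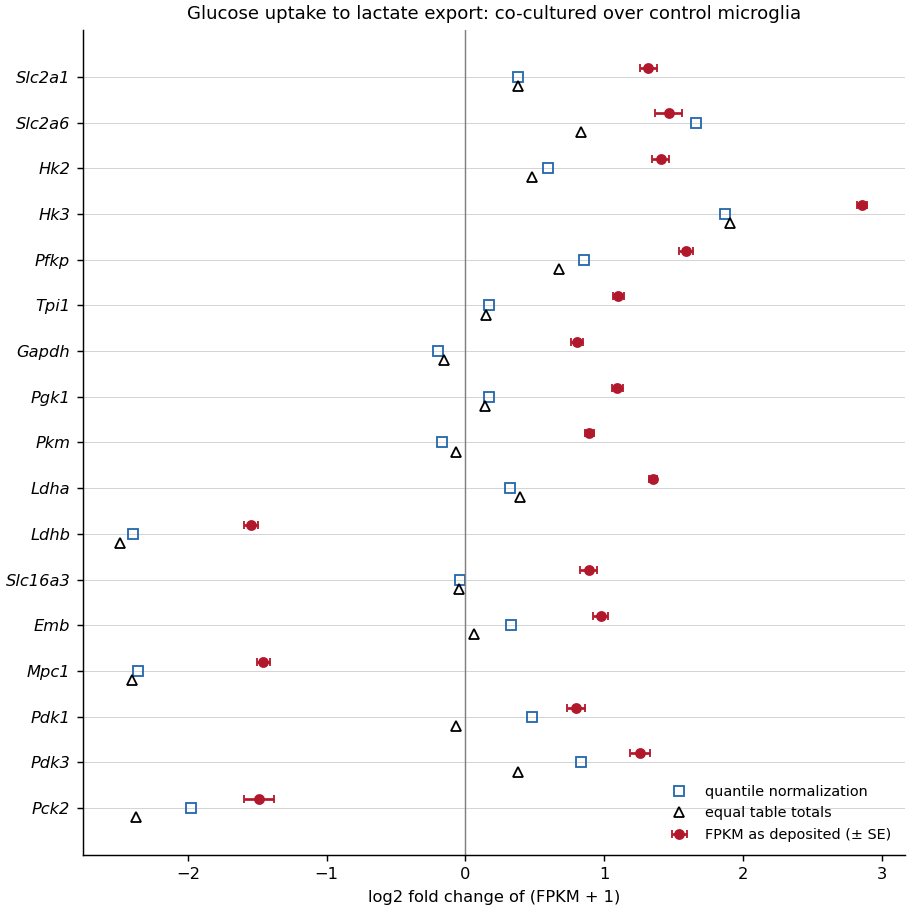
Log2 fold change of (FPKM + 1) between co-cultured and control microglia for genes with a tested row, ordered from glucose uptake to lactate export and pyruvate handling. Filled points with SE bars use the deposited FPKM, squares quantile normalization and triangles equal table totals; Hk2, Pfkp, Hk3 and Ldha lie above 0 in all 3, Ldhb, Mpc1 and Pck2 below 0 in all 3, and Slc16a3 is at 0.89, -0.04 and -0.05.

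Hif1a, which encodes the oxygen-sensitive alpha subunit, stood at 141.33, 135.52 and 128.02 FPKM in co-cultured microglia, against 39.01, 36.35 and 33.47 FPKM in control, a log2 difference of 1.87 (SE 0.07, adjusted p = 1.27e-07 by limma) that passed under both scalings. Epas1, the alternative subunit HIF2-alpha, went the other way and fell to 2.68 ± 0.112 FPKM in co-culture, against 10.3 ± 0.631 FPKM in control. The ratio of Hif1a to Epas1 was 54.8, 51.1 and 45.7 in co-culture, against 3.71, 3.38 and 3.50 in control. P4ha3, a collagen prolyl hydroxylase on the same list, was at 0.36, 0.32 and 0.58 FPKM in co-culture and 2.63, 1.76 and 2.69 FPKM in control. Of the 13 genes on this list, these 3 had a row in microglia. HIF activity is set largely by protein stability, which these data do not measure.

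The hypoxia-induced list, to which Ndrg1 belongs, was split in direction, as was the table as a whole. Of 34 genes, 10 were tested in microglia, and 5 rose and 5 fell, near the 53.4% and 46.6% of all genes tested. Their median log2 fold change of -0.33 falls in the gap between the smallest rise (0.61) and the smallest fall (-1.27), so it describes no gene of the list. Over all genes tested the median was 0.74. With equal totals 2 were higher and 5 lower (35.1% and 47.8% of all genes tested). After quantile normalization 4 were higher and 5 lower (47.3% and 46.9%). Nos2, inducible nitric oxide synthase, stood at 41.86, 38.32 and 47.64 FPKM in co-culture, against 0.76, 0.47 and 0.44 FPKM in control. Hilpda, a lipid droplet protein that limits lipolysis, rose 2.43-fold and passed under both scalings. The cytokine gene Mif was 1.87-fold higher and the adenylate kinase gene Ak4 2.06-fold higher with the deposited FPKM. With equal totals their log2 fold changes were -0.06 and 0.05 and did not pass. After quantile normalization Mif was at -0.02, while Ak4 passed at 0.93 (limma adjusted p = 1.25e-05).

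The genes described next fell under every scaling. Cxcr4, the receptor for the chemokine CXCL12, fell to 2.90 ± 0.321 FPKM in co-culture, against 106 ± 6.33 FPKM in control. Angptl4, an inhibitor of lipoprotein lipase, fell 5.16-fold, Loxl2, a collagen crosslinking enzyme, 4.59-fold, and Mxi1, an antagonist of MYC, 2.49-fold. Among these, Loxl2 is also expressed by fibroblasts. Of the fibroblast list, 3 of 5 genes had a row. Their summed level lay between 77.0 and 159.5 FPKM in co-culture and between 268.3 and 302.6 FPKM in control. Col1a1 and Col1a2 were lower under every scaling. Dcn was higher in co-culture, a call that ended with equal totals and held after quantile normalization. The part of such cells in the result was not tested. Ndrg4, a second member of the NDRG family, was at 0.48, 0.89 and 1.01 FPKM in co-culture and 2.17, 2.34 and 2.39 FPKM in control, the opposite direction to Ndrg1.

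The co-cultured libraries were checked for T cell RNA, since Slc16a3 and Ndrg1 were also measured in Treg cells. Of the T cell list, 3 of 19 genes had a row in the microglia table, and their summed level was between 1.76 and 1.80 FPKM in co-culture and between 0.88 and 1.10 FPKM in control. Lck was at 0.54, 0.47 and 0.66 FPKM in co-culture and 0.17, 0.19 and 0.38 FPKM in control. Ikzf2 was at 1.18, 1.24 and 1.14 FPKM in co-culture and 0.48, 0.41 and 0.42 FPKM in control. Cd5 was at 0.05, 0.05 and 0 FPKM in co-culture and 0.23, 0.33 and 0.30 FPKM in control. Thus 2 of the 3 were higher and 1 lower in co-culture, and all were below the filter on low values. The part of T cell RNA in the members' levels was not tested. No gene of the neutrophil, B cell or erythroid list had a row. Ndrg1 is also a gene of myelinating cells, and of the 9 oligodendrocyte lineage genes 4 had a row, with a summed level between 30.8 and 32.2 FPKM in co-culture and between 35.1 and 38.5 FPKM in control. Of these, Mbp and Cspg4 were lower and Mag higher in co-culture. Cnp was higher with the deposited FPKM and after quantile normalization and did not pass with equal totals. The part of other cells in the difference of Ndrg1 was not tested. Of 6 astrocyte genes, Aqp4 had a row, at 0.70 to 2.07 FPKM in co-culture and 2.72 to 4.38 FPKM in control. Of the 7 endothelial genes 3 had a row, and they summed to between 26.0 and 28.9 FPKM in co-culture and between 7.60 and 8.23 FPKM in control.

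Outside these lists, the genes closest to each member were found by the root mean square distance between log2(FPKM + 1) values, each centred on the gene's own mean, over the 6 libraries of a table. For Hk2 in microglia these were Snx10, Itsn1 and Irf2, at distances of 0.03 to 0.04 among 1528 genes compared. For Pfkp they were Adora3, Anpep and Abhd16a, for Slc16a3 Tbkbp1, Zfp703 and Sertad3, and for Ndrg1 Slc25a43, Mex3b and Rai14. The closest neighbour of Ndrg1 was at 0.03 and the other two at 0.06 and 0.07. None of the 12 was on a glycolysis or hypoxia list, and the distances rest mostly on the step between the groups that nearly every gene in the table shows.

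Among other genes of energy metabolism in microglia, Acod1, which makes the macrophage metabolite itaconate, was the only one of the 24 genes of the TCA cycle list with a row. It stood at 209.85, 166.68 and 179.18 FPKM in co-culture, against 3.97, 3.11 and 3.13 FPKM in control. Of 78 genes of oxidative phosphorylation, 2 had a row, Cox5a (2.45-fold higher, passing under both scalings) and Cox7b (1.91-fold higher, at -0.02 with equal totals and -0.06 after quantile normalization). Of 22 regulators of glucose metabolism, 4 had a row and 3 were tested. The p53 target Sesn1 and the insulin receptor substrate gene Irs2 fell 2.68-fold and 2.42-fold. Txnip, which lowers glucose uptake, was 2.13-fold higher, a call that ended with equal totals and held after quantile normalization. Txnip was picked after its values were seen.

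In Treg cells, the hypoxia marker moved most. Ndrg1 was 8.0-fold higher and Slc16a3 2.07-fold higher in mean FPKM in the injured spinal cord than in the spleen, with 3 libraries each. Both calls were towards higher levels, as were 61.0% of the 1072 genes tested. The groups did not overlap for either gene, nor for 92.7% of the 1284 genes of the table. Ndrg1 also passed under both scalings, while Slc16a3 passed after quantile normalization and not with equal totals.

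Ndrg1 stood at 32.83, 20.85 and 35.80 FPKM in spinal cord Treg cells, against 3.83, 4.17 and 3.19 FPKM in spleen Treg cells. The groups were far apart, and the lowest cord library exceeded the highest spleen library severalfold. On the log2 scale the difference was 2.67 (SE 0.28, adjusted p = 7.56e-06 by limma), against 1.85 with equal totals and 2.36 under quantile normalization. Ndrg1 ranked 56 from the top among the 1072 genes tested. The log2 difference was 2.90 without spinal cord library 2, which held the lowest of the 3 cord values, and 2.53 without library 3.

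Slc16a3 stood at 63.06, 59.87 and 56.25 FPKM in spinal cord Treg cells, against 32.24, 28.60 and 25.80 FPKM in spleen Treg cells. The groups did not overlap and each spread over a similar range. The log2 fold change was 1.03 (SE 0.18, limma adjusted p = 2.42e-04). It was 0.11 with equal totals (adjusted p = 0.703) and 0.79 after quantile normalization (adjusted p = 0.00131). The median over all genes tested was 0.95, which takes in the genes that fell. Slc16a3 ranked 499 from the top of the 1072 genes tested, of which 654 were called higher. The authors' deposited table gave log2 fold changes of 3.12 for Ndrg1 and 1.15 for Slc16a3.

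The ratio of Slc16a3 to Ndrg1, which a common factor per library does not change, was 1.92, 2.87 and 1.57 in the cord, against 8.42, 6.86 and 8.09 in the spleen. Ndrg1 was thus higher per Slc16a3 transcript in each cord library than in any spleen library (exact two-sided permutation p = 0.10, the smallest possible). Slc16a1, which encodes MCT1, a transporter that can carry lactate in either direction, was at 16.00, 18.20 and 15.84 FPKM in the cord, against 49.97, 53.78 and 54.06 FPKM in the spleen. It fell under every scaling, with a log2 difference of -1.60 (SE 0.19, adjusted p = 1.59e-05 by limma). The ratio of Slc16a3 to Slc16a1 was 3.94, 3.29 and 3.55 in the cord, against 0.645, 0.532 and 0.477 in the spleen, so the order of these 2 lactate transporters differed between the tissues in every library. Mpc1 was 1.89-fold higher in the cord with the deposited FPKM, but at -0.02 with equal totals, and its ratio to Slc16a3 overlapped between the tissues.

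**Figure D4:**
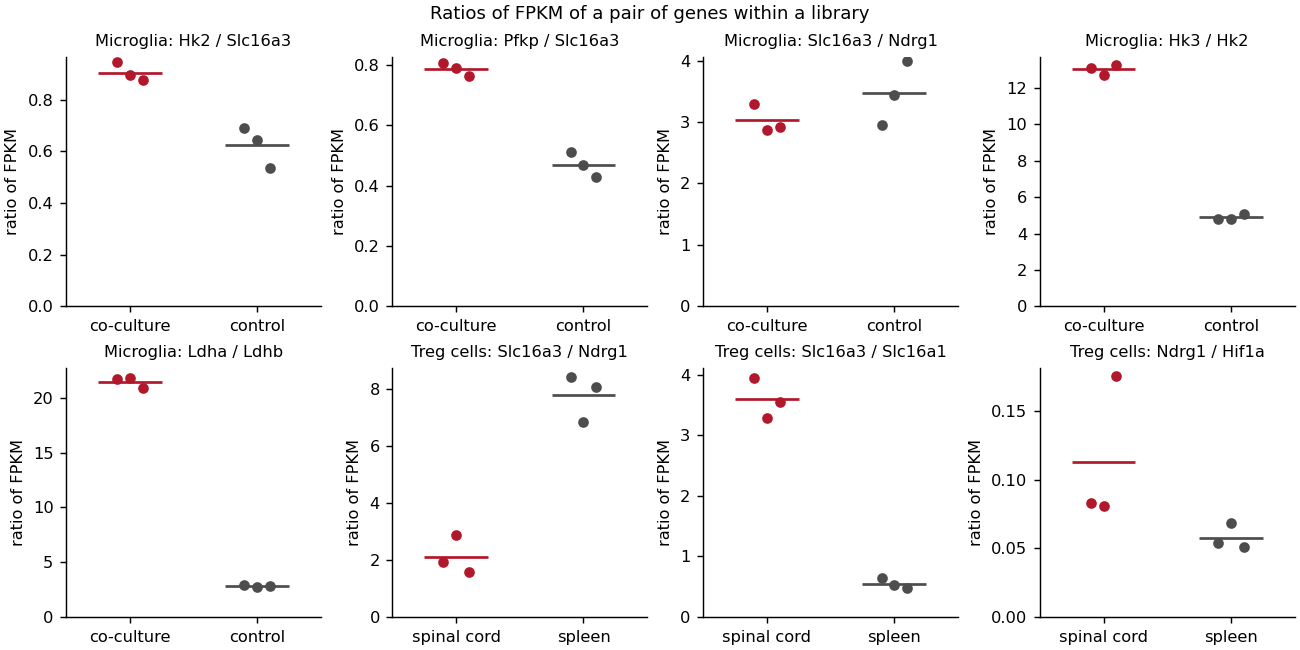
Ratio of the FPKM of a pair of genes within each library (points) with the group mean (line), in microglia and in Treg cells. Ratios do not change when all values of a library are multiplied by the same factor. Slc16a3 over Slc16a1 lies between 3.29 and 3.94 in cord Treg cells and between 0.477 and 0.645 in spleen Treg cells, while Slc16a3 over Ndrg1 overlaps between the microglia groups.

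Few glycolysis genes could be followed in Treg cells. Of the 26 genes on the list 1 had a row, Hk3, listed at 2.18, 0.34 and 2.18 FPKM in the cord and at 0 in every spleen library, which was kept out of the test by the filter. Of the list of flux control, Pck2 and Pdk4 rose. Pck2 was at 42.45, 30.07 and 49.33 FPKM in the cord, against 6.51, 7.90 and 7.96 FPKM in the spleen, and Pdk4, a further pyruvate dehydrogenase kinase, at 1.69, 2.88 and 2.87 FPKM in the cord, against 0.01, 0 and 0 FPKM in the spleen. Both passed under every scaling. No gene of the glycogen or TCA cycle lists had a row.

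Hif1a stood at 394.02, 257.89 and 203.87 FPKM in cord Treg cells, against 71.04, 61.05 and 62.62 FPKM in spleen Treg cells, a log2 difference of 2.07 (SE 0.21, adjusted p = 7.15e-06 by limma) that passed under both scalings. Per Hif1a transcript, Ndrg1 was at 0.0833, 0.0809 and 0.176 in the cord, against 0.0539, 0.0683 and 0.0509 in the spleen. The cord library with the most Hif1a was not the one with the most Ndrg1. Epas1, the other subunit with a row among the 13 genes of oxygen sensing, was at 0.77, 0.22 and 0.35 FPKM in the cord and 0.01, 0 and 0 FPKM in the spleen.

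Of the 34 hypoxia-induced genes, 8 had a row and 6 were tested in Treg cells. Counting Ndrg1, 5 rose and 1 fell, with a median log2 fold change of 1.77, against 0.95 over all genes tested. Over all genes tested 38.6% fell. With equal totals 4 of the 6 were higher and 1 lower, against 24.8% and 38.6% of all genes tested, and after quantile normalization 5 were higher and 1 lower, against 46.3% and 38.6%. Plin2, a coat protein of lipid droplets, was at 193 ± 11.9 FPKM in the cord and 50.7 ± 11.5 FPKM in the spleen, and Bhlhe40, a transcription factor of activated and tissue T cells, at 231 ± 30.3 FPKM in the cord and 63.8 ± 6.40 FPKM in the spleen (SD, n = 3 each). Hilpda was 2.05-fold higher, a call that ended with equal totals (log2 fold change 0.13, limma adjusted p = 0.72). It held after quantile normalization (log2 fold change 0.79, limma adjusted p = 0.00512). Tfrc, the transferrin receptor of proliferating cells, fell to 27.8 ± 12.3 FPKM in the cord, against 155 ± 19.7 FPKM in the spleen. Cxcr4 was at 5.61, 3.31 and 1.88 FPKM in the cord and 0.70, 0 and 0.41 FPKM in the spleen. Vldlr was listed at 0 in the spleen and Stc2 at 0 in the cord, and both were below the filter.

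Ndrg2, a second gene of the NDRG family, was at 55.37, 41.83 and 39.82 FPKM in cord Treg cells, against 18.57, 13.48 and 12.61 FPKM in spleen Treg cells, and passed under both scalings (log2 fold change 1.56, SE 0.23). The ratio of Ndrg1 to Ndrg2 was 0.593, 0.498 and 0.899 in the cord, against 0.206, 0.309 and 0.253 in the spleen, so Ndrg1 was higher per Ndrg2 transcript in each cord library. The 3 genes closest to Ndrg1 in pattern among 1071 were Gm35498, Abcb9 and Socs3, at distances of 0.18 to 0.19, and those closest to Slc16a3 were Cytip, Lipo3 and Glrx, at 0.08 to 0.09. Of the regulators of glucose metabolism, Irs2 and Igf1r were tested and both rose, Irs2 7.0-fold and Igf1r 3.52-fold, and the call of Igf1r ended under both scalings. Of oxidative phosphorylation, Ndufa1 and Ndufa3 were higher with the deposited FPKM, and with equal totals Ndufa1 lay at -0.05 and Ndufa3 at 0.03. After quantile normalization they lay at 0.10 and 0.05, and neither gene passed under these scalings. The call of Ndufa3 was lost without spinal cord library 2 (limma adjusted p = 0.066) or library 3 (0.0687).

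**Figure D5:**
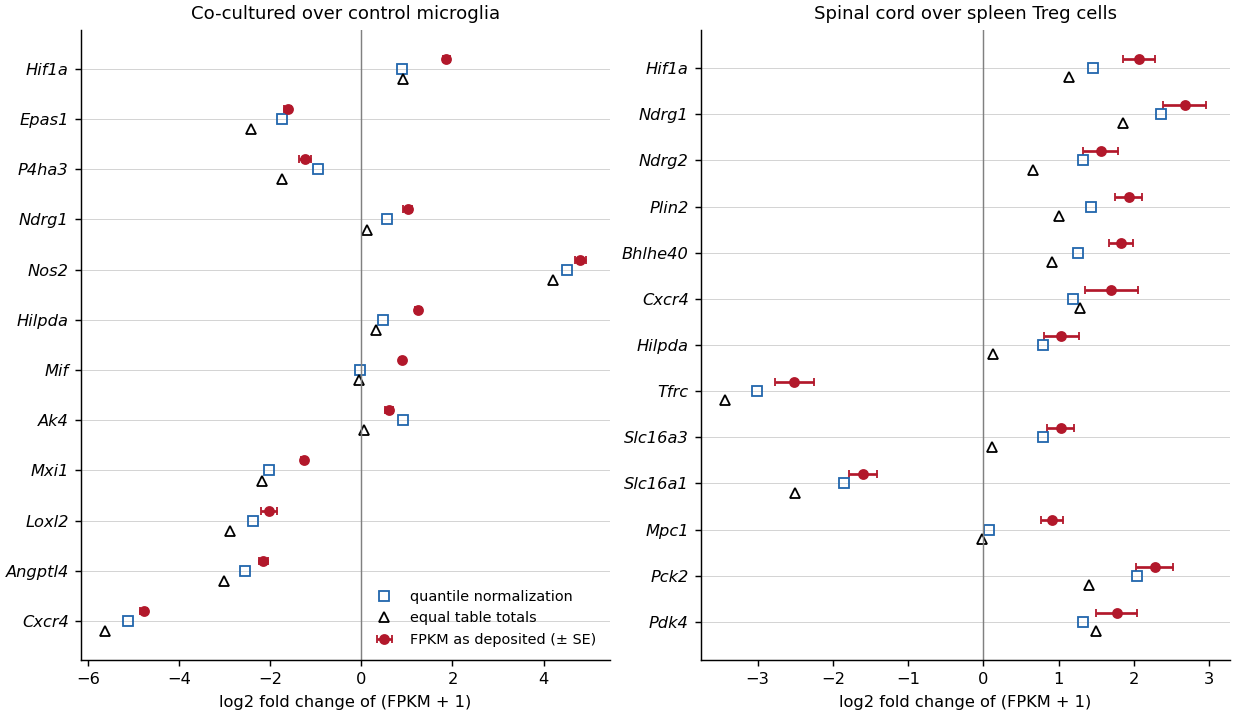
Log2 fold change of (FPKM + 1) for HIF subunits, hypoxia-induced genes and, for the Treg cells, related metabolic genes with a tested row, in co-cultured over control microglia on the left and spinal cord over spleen Treg cells on the right. Filled points with SE bars use the deposited FPKM, squares quantile normalization and triangles equal table totals; Hif1a lies above 0 in every case, and Cxcr4 is at -4.77 in microglia and 1.70 in Treg cells.

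Markers of other cells differed between the Treg groups as well. Of the 20 microglia and macrophage genes 6 had a row, with a summed level between 81.8 and 99.1 FPKM in the cord and between 25.6 and 35.3 FPKM in the spleen, and C1qb was at 0 in every spleen library. Of the 13 neutrophil genes, S100a8 and Mmp8 had a row and summed to between 28.4 and 83.0 FPKM in the cord and between 4.22 and 9.77 FPKM in the spleen. Of the 7 endothelial genes 3 had a row, mostly Ly6c1, summing to between 163.4 and 409.5 FPKM in the cord and between 39.4 and 44.4 FPKM in the spleen. Of the 9 oligodendrocyte lineage genes, Cnp had a row, at 207.75, 158.97 and 207.05 FPKM in the cord, against 48.04, 52.04 and 56.72 FPKM in the spleen. Cd79b of the 4 B cell genes was at 2.66 to 5.38 FPKM in the cord and 0 in the spleen, and no astrocyte, erythroid or fibroblast gene of the lists had a row. By summed list, cord library 2, the lowest for Ndrg1, was the lowest of the cord libraries for endothelial and oligodendrocyte genes, the highest for neutrophil and T cell genes, and in the middle for macrophage and B cell genes. The part of such cells in the rise of Ndrg1 was not tested.

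Set side by side, Slc16a3 was at 56.9 ± 1.97 FPKM in co-cultured and 30.3 ± 2.11 FPKM in control microglia, and at 59.7 ± 3.41 FPKM in cord and 28.9 ± 3.23 FPKM in spleen Treg cells (SD, n = 3 each). Ndrg1 was at 18.9 ± 2.01 FPKM in co-cultured and 8.81 ± 0.737 FPKM in control microglia, and at 29.8 ± 7.92 FPKM in cord and 3.73 ± 0.498 FPKM in spleen Treg cells. The difference between the cell types was not tested, since their tables were normalized separately. Some genes near the members in the pathway had opposite signs in the tables: Mpc1 and Pck2 fell in co-cultured microglia and were higher in cord Treg cells, a sign that for Mpc1 turned with equal totals.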

How the data were processed

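Poly(A) RNA captured on oligo(dT) beads (per the labels' protocols) was sequenced in 12 libraries, and groups and replicate numbers came from the sample titles. The authors deposited FPKM values, as the column headers name them, with 2 decimals in 1 table per comparison. The submitters' processing notes list Bowtie2, RSEM 1.3.1, DESeq2 1.4.5 and GRCm38.p6, and give no roles for them. Each table also holds the authors' log2 fold change and Q value (an adjusted p-value) as deposited; the sources used here do not give the model behind them. Every row had an absolute log2 of at least 1.0006 and a Q value of at most 0.0498. The authors' microglia column names its numerator with a word found in no label; in all 2186 genes it had the sign of co-culture over control. Compared with log2 ratios of the mean FPKM, the authors' log2 was larger by 0.1181 in Treg cells and 0.2121 in microglia (medians).

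A filter of mean FPKM 1 across a table's libraries left 1072 of 1284 and 1529 of 2186 genes, and log2(FPKM + 1) was tested per table with limma 3.58.1 in R 4.3.3 (eBayes with a mean-variance trend, prior degrees of freedom 7.86 and 2.94), with Benjamini-Hochberg adjustment at 0.05. The fit was tested on simulated data. Folds are ratios of mean FPKM, errors are SDs or SEs. Depth is unknown, so no counting intervals are given. The 22 ratios within libraries were chosen after their values were seen and compared with exact permutation tests (scipy 1.17.1 under Python 3.11.15, with pandas 2.3.3, numpy 2.4.6 and matplotlib 3.10.9). Promoters and coordinates came from RefSeq tables of GRCm38.p6, and overlaps from GENCODE M21.

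The members and lists were chosen with earlier results of these data known. Named genes are the members, every gene with a row of the lists of glycolysis, flux control, transport, oxygen sensing, hypoxia, the NDRG family, pentose phosphates and glycogen, the 2 largest changes of each other pathway list, and the 3 nearest patterns per member. One gene that this rule names is not reported here. Marker genes were named after their values were seen. Alternatives were other pseudocounts (0.1 and 0.5), other filters (none, or a mean of at least 5), equal totals, quantile normalization, a replicate block, no trend, and leaving out each library.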

Additional observations from a re-analysis of the deposited data

How the results depend on the processing

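Scaling mattered most. With equal totals over the table, 266 genes were called higher in Treg cells (654 as deposited) and 537 in microglia (817 as deposited). The log2 fold change of Slc16a3 was then 0.114 in Treg cells and -0.046 in microglia, and that of Ndrg1 in microglia 0.131, and these calls ended. Other named genes that turned below 0 with equal totals were Mpc1 (-0.021) and Ndufa1 (-0.051) in Treg cells, and Gapdh (-0.154), Pkm (-0.064), Pdk1 (-0.069), Mif (-0.056), Pgm1 (-0.156), Cox7b (-0.024), Tbkbp1 (-0.001) and Zfp703 (-0.053) in microglia, as did the marker Cnp (-0.004). After quantile normalization, Slc16a3 (-0.035), Gapdh (-0.20), Pkm (-0.164), Mif (-0.023), Cox7b (-0.062) and Zfp703 (-0.038) turned in microglia. Which scale is right cannot be told from selected genes. Changing the filter moved the count of lower genes in microglia to 1150 with none and 341 at a mean of at least 5, since other genes are then tested. Other pseudocounts and no trend ended no call of a named gene.

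Leaving out each library in turn, the log2 fold changes lay between 1.357 and 1.441 for Hk2, 1.569 and 1.608 for Pfkp, 0.845 and 0.941 for Slc16a3 and 0.962 and 1.103 for Ndrg1 in microglia, and between 0.952 and 1.107 for Slc16a3 and 2.529 and 2.905 for Ndrg1 in Treg cells, and every member kept its call. Counts of genes called higher lay between 620 and 631 in Treg cells and 816 and 817 in microglia, and those called lower between 408 and 412 and at 712.

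Deviations of same-numbered libraries correlated across genes at -0.003, -0.041 and -0.053 in Treg cells and -0.041, 0.149 and 0.175 in microglia. For libraries with different numbers, these correlations lay between -0.014 and 0.056 in Treg cells and between -0.292 and 0.271 in microglia. From 3 libraries per group it cannot be told whether libraries with the same number share an animal or culture. With the replicate number as a block, every named gene kept its call, with 650 higher and 414 lower genes in Treg cells and 817 and 712 in microglia, and the log2 fold change of Ndrg1 in Treg cells stayed at 2.674. Depth, which would limit the precision of low genes, is unknown.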
